A study of Mus musculus with 8 samples.

Results

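Voltage-gated potassium (Kv) channel genes were followed in the visual cortex of adult mice after a block of miR-29a. The genes were chosen by symbol alone, with no measured value: all symbols made of Kcna, Kcnb, Kcnc, Kcnd, Kcnf, Kcng, Kcnh, Kcnq, Kcns or Kcnv and a number, and Kcnab1, Kcnab2 and Kcnab3. They made up 43 of the 24883 gene rows of the table, 40 pore-forming alpha subunits and 3 cytoplasmic beta subunits. All mice were C57BL/6J. On postnatal day 122 a locked nucleic acid (LNA) oligonucleotide was injected into the cortex, and tissue was taken 7 days later, on postnatal day 129. The scrambled group (4 samples) received a control sequence and the anti-miR-29a group (4 samples) an inhibitor of miR-29a. Both groups therefore share the injection, and no uninjected cortex was analysed here. The labels do not state whether each sample is a different animal, and the p-values therefore reflect sample-to-sample spread that may be technical in part. Levels are FPKM, fragments per kilobase of transcript scaled to the number of mapped fragments, and can be compared between genes because they are per length.

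Kv channels open when the membrane depolarises and let potassium leave the cell, which ends the action potential and sets how soon the next can follow. A channel is a ring of alpha subunits around a common pore. In cortex, Kcna (Kv1) channels sit mainly on axons, Kcnb (Kv2) channels carry the slow delayed rectifier of the cell body, Kcnc (Kv3) channels let fast-spiking interneurons fire at high rates, Kcnd (Kv4) channels give the transient A-type current of dendrites, and Kcnq (Kv7) channels the M-current that damps repetitive firing. Kcnh genes encode the ether-a-go-go, ERG and ELK channels. The Kcnf, Kcng, Kcns and Kcnv subunits do not form channels alone and modify Kv2 channels, and the Kcnab beta subunits bind Kv1 channels from inside the cell.

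No Kv gene passed the test of anti-miR-29a against scrambled. Of the 43 genes, 36 averaged 0.5 FPKM or more over the 8 libraries and were tested (limma with Benjamini-Hochberg adjustment over all 13912 tested rows, of which 2, or 0.0144%, passed). Before adjustment 3 Kv genes were higher at p under 0.05, Kcng2 and Kcnab3 among them, which is 8.33% of those tested and close to the 7.54% of all tested rows. At the same bound 4 were lower, Kcnh5, Kcna3 and Kcng1 among them, 11.1% of those tested against 3.18% of all rows. That split depends on scaling: 1 was higher and 11 lower after quantile normalization, where all rows gave 5.13% and 5.73%, and 1 was higher and 10 lower after median centring, where all rows gave 5.38% and 5.25%. Differences were negative in 22 of the 36 genes, or 61.1%, against 43.4% of all rows, and positive in 14, or 38.9%, against 56.6%. Both directions together made up 19.4% of the Kv genes and 10.7% of all rows at the unadjusted bound. Their median was -0.092 log2 units and that of all tested rows 0.026. The bulk measure cannot tell fewer cells of a type from less RNA per cell.

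**Figure D1:**
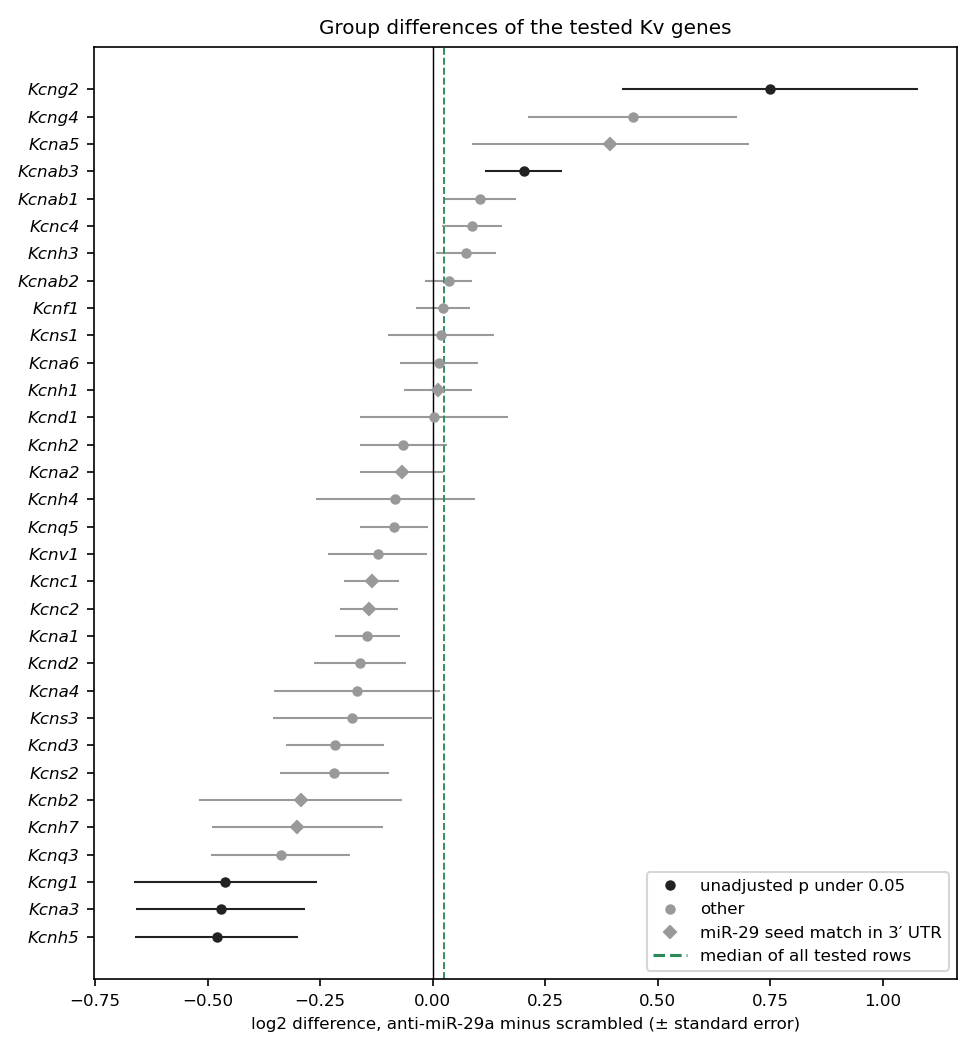
Log2 difference, anti-miR-29a minus scrambled, of 32 tested Kv genes with standard errors. Black symbols mark genes at an unadjusted p under 0.05, diamonds genes with a miR-29 seed match, and the dashed line the median of all tested rows at 0.026. Kcng2 lies at the top with 0.75 and Kcnh5 at the bottom with -0.48.

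A microRNA pairs with its targets through its seed, so the sequences of the miR-29 family and its matches in Kv transcripts are shown first. The mature mouse sequences are from RefSeq (GRCm38.p6), and capitals mark the seed, bases 2 to 8, which miR-29a shares with miR-29b and miR-29c.
miR-29a-3p: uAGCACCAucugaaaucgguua
miR-29b-3p: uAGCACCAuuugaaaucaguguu
miR-29c-3p: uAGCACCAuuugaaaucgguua
A match to this seed, TGGTGCT on the transcript strand, was searched in the longest annotated 3' UTR of each gene (GENCODE M21, on the mm10 assembly). It was present in 10 of the 43 Kv genes, and in 9 of the 36 tested ones, 25% against 15.8% of the 13152 tested rows with a 3' UTR. The tested Kv genes had a median 3' UTR of 2278 nt against 1223 nt for all tested rows, and the part of length in this share was not tested. The genes with a match include Kcna2, Kcna5, Kcnb2, Kcnc1, Kcnc2, Kcnh1, Kcnh7 and the low gene Kcnv2. Kcnc1, Kcnc2, Kcnh1 and Kcnh7 held 2 each and the others 1 each.

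The matches of Kcnc1 and Kcnc2 are printed because each of these Kv3 genes held 2, and that of Kcna5 because it had the larger of the only 2 positive differences among tested genes with a match. Kcna5 met the 0.5 FPKM bound only through the anti-miR-29a libraries, with a scrambled mean of 0.451 FPKM, so its direction is tied to the filter. Each line gives 29 bases of the 3' UTR on the gene's own strand, with the seed match in capitals.
Kcnc1, first match, chr7:46430129-46430135, plus strand: gtgtcaggattTGGTGCTcaaaattggag
Kcnc1, second match, chr7:46430555-46430561, plus strand: cccttgctgttTGGTGCTgttctgatgtt
Kcnc2, first match, chr10:112465109-112465115, plus strand: aacatgctgtcTGGTGCTgctgttattga
Kcnc2, second match, chr10:112465325-112465331, plus strand: tggaactgagaTGGTGCTcgccatgggaa
Kcna5, chr6:126532730-126532736, minus strand: ggatgtactatTGGTGCTttgtgtctaag
A match to the seed is a description of the sequence and not a measured site. The 9 tested Kv genes with a match had a median difference of -0.14 log2 units, 7 of them negative. Among the other 27 the median was -0.083 and 15 were negative. Over all tested rows these medians were 0.025 and 0.026. None of the 7 Kv genes at an unadjusted p under 0.05 held a match. With a match in 25% of the tested Kv genes, 7 genes are too few to read a share from.

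All libraries but anti-miR-29a replicate 2 were scaled by similar factors, as read from the spacing of low values. That spacing put the relative factor of the others between 0.983 and 1.053 of scrambled replicate 1. For anti-miR-29a replicate 2 it was 1.169. At the best factor 21.7% to 29.2% of ratios lay on a grid of small whole-number ratios, and 3.9% to 4.7% did at the median one. Whether this factor follows the number of fragments is not known, because the Cuffnorm scaling is not. Total fragment counts were not used here. Markers of excitatory neurons were present at 3467 to 3820 FPKM summed in scrambled and 3621 to 3942 in anti-miR-29a libraries, and no marker list of any cell type was at 0. Of the 10 excitatory markers 5 were positive. Nrgn was higher and Neurod6 lower at an unadjusted p under 0.05, which 7.54% and 3.18% of all tested rows met in these directions. The summed interneuron markers Sst, Vip, Calb2, Npy, Cort and Chodl did not overlap between groups, at 791.5 to 850.5 and 889.6 to 995.6 FPKM. Groups lay apart in this direction in 4.02% of all tested rows, a share for single genes and not for sums. Most of the sum was Sst, which overlapped, at 464.3 to 526.9 FPKM in scrambled and 491.5 to 588.9 in anti-miR-29a libraries. Of the 5 tested markers 4 were positive, and Calb2 was negative at -0.27 log2 units. Of these, 2 (Cort and Npy) were higher at an unadjusted p under 0.05, which 7.54% of all tested rows met in that direction. Fibroblast markers read 317.9 to 495.9 and 463.9 to 707.1 FPKM, with 3 of 5 tested markers higher at that bound. Most of this sum was Ptgds alone, at 307.4 to 477.3 FPKM in scrambled and 448.8 to 685.8 in anti-miR-29a libraries. Astrocyte markers read 532.4 to 699.1 and 576.4 to 879.5 FPKM, with 2 of 6 higher at it, Gfap and Gja1. Only 3 of these 6 were positive, since Aldh1l1 (-0.0040), Aldoc (-0.023) and Slc1a3 (-0.0040) had small negative differences. Gfap varied widely, from 109.4 to 248.4 FPKM among scrambled libraries and from 163.4 to 392.3 among the others. The astrocyte sum therefore does not stand for each of its markers. Oligodendrocyte markers ranged from 825.3 to 1691 FPKM within the scrambled group and from 924.9 to 1228 in the other, with 0 of 7 positive. The part of these shifts in the Kv values was not tested, and none of these marker genes passed after adjustment.

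Kv levels spanned a wide range. The 40 alpha subunits summed to 447.6, 485.5, 457.2 and 469.2 FPKM in the scrambled libraries and to 437.6, 449.1, 432.3 and 437.0 in the anti-miR-29a libraries. The groups overlapped, since anti-miR-29a replicate 2 stood above scrambled replicate 1. The Kcnh genes held 16.5% ± 0.379 of this sum against 17.3% ± 0.697 (SD, n = 4 per group; scrambled first here and in pairs of means that follow). Kcna genes held 14.3% ± 0.504 and 14.2% ± 0.582, and for both subfamilies the 2 groups of libraries overlapped.

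**Figure D2:**
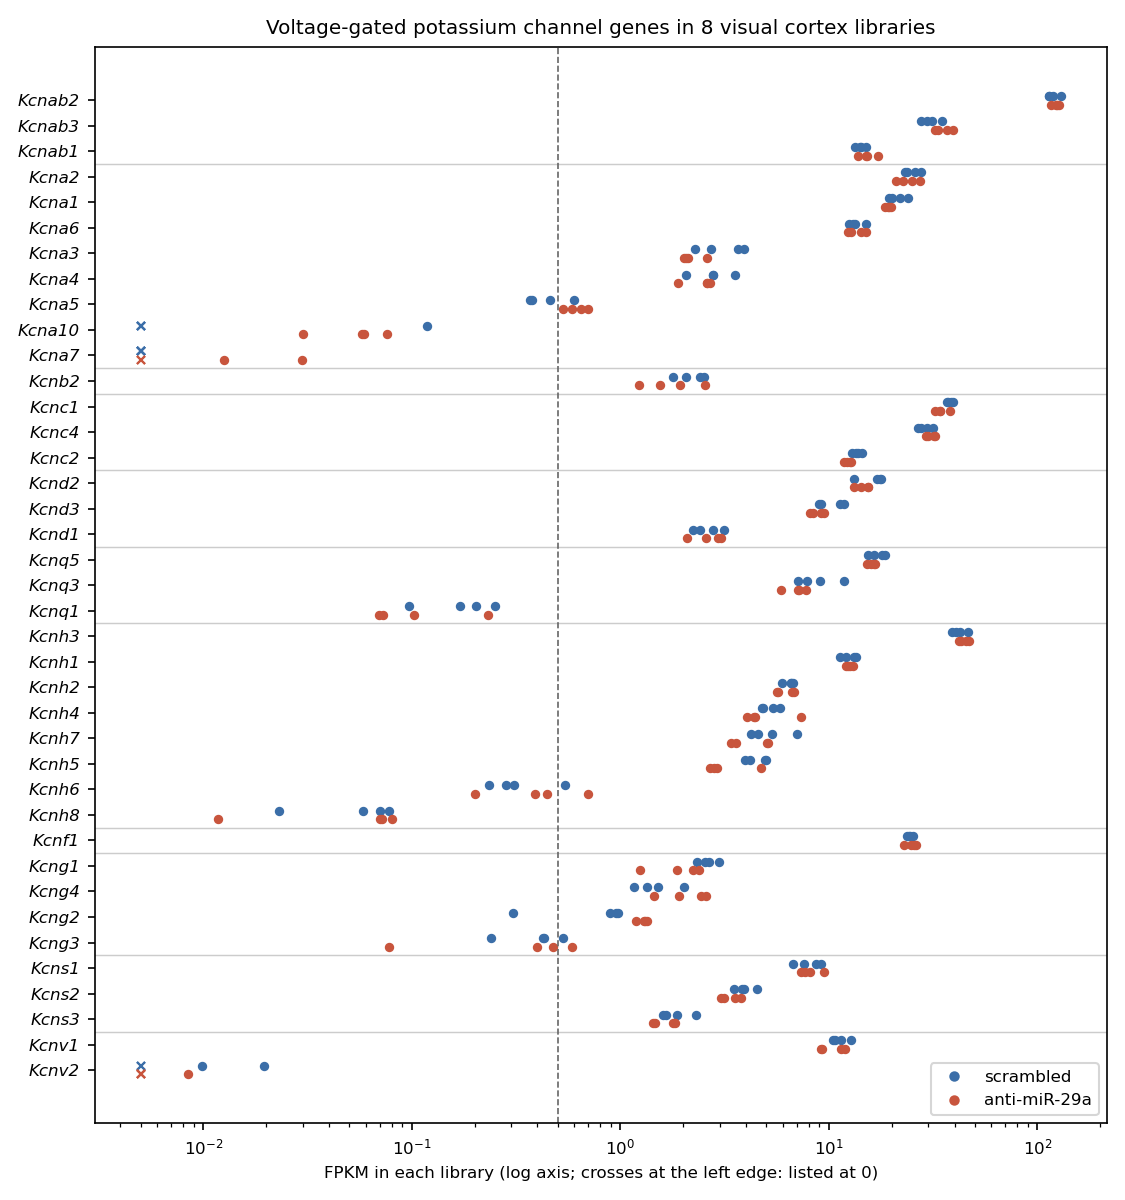
FPKM of 39 Kv genes in each of the 8 libraries on a log axis, grouped by subfamily, with the dashed line at 0.5 FPKM, below which genes are called low. Crosses at the left edge mark libraries in which a gene was listed at 0. Kcnab2 stands highest at 113 to 129.6 FPKM, and Kcna7 and Kcnv2 lowest.

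**Figure D3:**
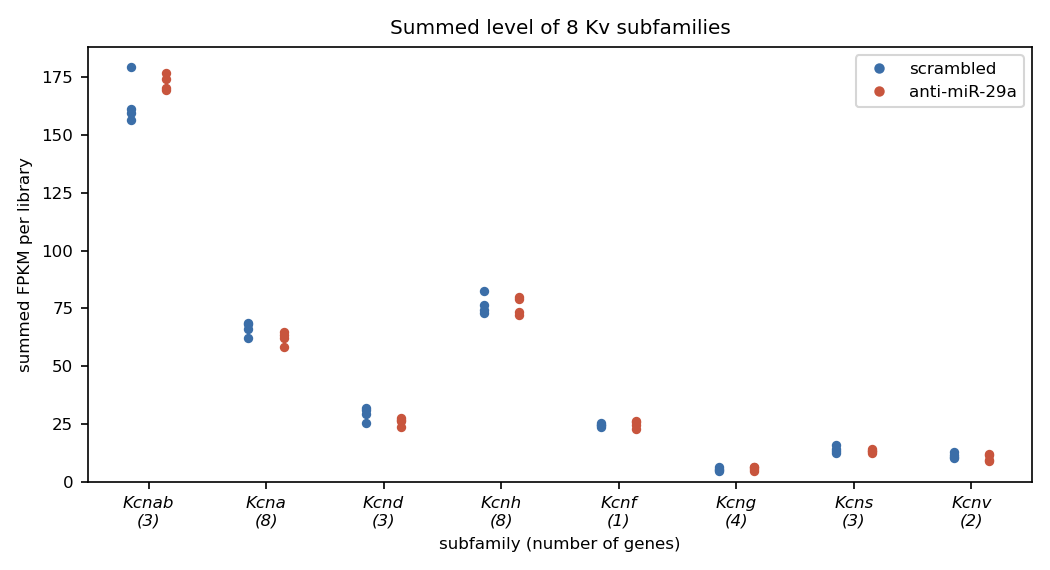
Summed FPKM of 8 Kv subfamilies in each library, with the number of its genes in brackets. The beta subunits (Kcnab) stand highest at 156.3 to 179.4 FPKM, and Kcnh reads 72.2 to 82.6. Kcnb, Kcnc and Kcnq are not drawn.

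Of the M-channel subunits, Kcnq3 read 7.87, 9.09, 7.07 and 11.8 FPKM in scrambled and 5.88, 7.19, 7.72 and 7.11 in anti-miR-29a libraries. Scrambled replicate 4 stood highest and the groups overlapped, with a difference of -0.34 (limma, adjusted p = 0.470) that was -0.20 without that library (limma, adjusted p = 0.681). Kcnq5, a further M-channel subunit, read 17.1 ± 1.5 and 16.1 ± 0.692 FPKM. Kcnq1, the cardiac and epithelial member, was low at 0.179 ± 0.064 and 0.119 ± 0.077 FPKM. Its exons overlap those of the antisense RNA Kcnq1ot1 by at most 121 nt per pair of exons. In that stretch alone the unstranded libraries cannot separate the RNAs, and the longest Kcnq1 transcript has 3029 nt.

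**Figure D4:**
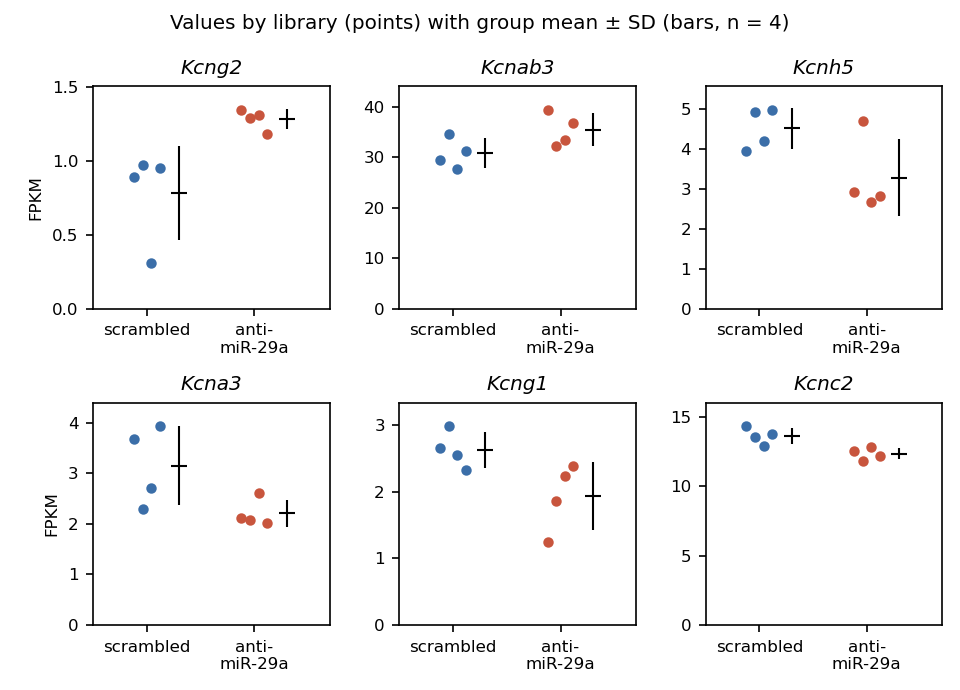
FPKM by library for 5 Kv genes at an unadjusted p under 0.05 and for Kcnc2, whose groups did not overlap, with group means and SD (n = 4 per group). Each axis starts at 0. Kcng2 is higher in all 4 anti-miR-29a libraries, Kcnc2 lower in all 4, and in Kcnab3, Kcnh5, Kcna3 and Kcng1 the groups overlap.

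Kcnc1 and Kcnc2, Kv3 genes with 2 seed matches each, had negative differences that did not pass, and Kcnh1, also with 2 matches, stood at 0.011. Kcnc2, which fast-spiking interneurons use together with Kcnc1, read 14.3, 13.6, 12.9 and 13.8 FPKM in scrambled and 12.6, 11.9, 12.8 and 12.2 in the anti-miR-29a libraries. The groups did not overlap, with scrambled replicate 3 and anti-miR-29a replicate 3 closest to each other. The difference was -0.14 log2 units (standard error 0.064; limma, adjusted p = 0.466). Kcnc2 was among 2 Kv genes with all anti-miR-29a libraries lower, 5.56% of those tested against 2.29% of all rows, and in either direction 11.1% against 6.31%. Kcnc1 read 36.8, 38.4, 39.4 and 37.3 FPKM in scrambled and 38.3, 33.9, 32.3 and 33.9 in anti-miR-29a libraries. Anti-miR-29a replicate 1 lay among the scrambled values while the other 3 lay below them, and the difference was -0.14 (limma, adjusted p = 0.466) and -0.18 without that library. Kcnc4, which gives a fast-inactivating current, read 28.95 ± 2.10 and 30.7 ± 1.46 FPKM (difference 0.088; limma, adjusted p = 0.671). Pvalb, which marks the interneurons richest in Kcnc1 and Kcnc2, read 75.7 ± 2.36 in scrambled and 82.8 ± 5.41 FPKM in anti-miR-29a libraries, a difference of 0.13 in the other direction (limma, adjusted p = 0.440). Of 5 listed markers of these interneurons 3 were positive, with a summed level of 105 to 112.6 and 106.1 to 124.2 FPKM.

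Among the Kcna genes Kcna2, an axonal subunit, stood highest, with 23.05, 25.9, 23.8 and 27.5 FPKM in scrambled and 20.9, 27.3, 22.6 and 25.02 in anti-miR-29a libraries. The groups overlapped widely (difference -0.068; limma, adjusted p = 0.823). Kcna1, its usual partner on axons, read 21.4 ± 1.96 and 19.2 ± 0.544 FPKM and Kcna6, another Kv1 subunit, 13.5 ± 1.09 and 13.6 ± 1.25. Kcna1 stood below Kcna2 in each of the 4 scrambled and 4 anti-miR-29a libraries. Kcna3, also known as the channel of T cells and activated microglia, read 3.68, 2.28, 2.70 and 3.92 FPKM in scrambled and 2.12, 2.07, 2.61 and 2.02 in the anti-miR-29a libraries. Scrambled replicates 1 and 4 were high, while replicate 2 lay inside the anti-miR-29a range. The difference was -0.47 log2 units (standard error 0.19; limma, adjusted p = 0.412; range over alternatives 0.289 to 0.628). Microglial markers summed to 122.4 to 185.4 FPKM in scrambled and 148.9 to 191.7 in anti-miR-29a libraries, with 3 of 6 positive. Kcna4, an A-type subunit, read 2.79 ± 0.594 and 2.45 ± 0.381 FPKM.

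Kcna5, a subunit of the atrial ultrarapid current, lay just inside the 0.5 FPKM bound. It read 0.458, 0.599, 0.369 and 0.376 FPKM in scrambled and 0.702, 0.587, 0.532 and 0.647 in anti-miR-29a libraries, and the groups overlapped (difference 0.39; limma, adjusted p = 0.680). It met the bound only through the anti-miR-29a libraries, since the scrambled mean was 0.451 FPKM. Kcng3 lay just outside, with 0.528, 0.432, 0.238 and 0.426 FPKM against 0.475, 0.587, 0.397 and 0.078. The other low genes were Kcnh6 at a mean of 0.387 FPKM, Kcnq1 at 0.149, Kcnh8 at 0.058, Kcna10 at 0.042, Kcna7 at 0.0053 and Kcnv2 at 0.0047 FPKM. Kcna7, a muscle channel, was listed at 0 in all 4 scrambled libraries. Kcnv2, known from photoreceptors, was listed at 0 in 2 scrambled and 3 anti-miR-29a libraries.

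All 3 beta subunit genes read higher, a direction that 56.6% of all tested rows shared. The difference of Kcnab2 turned to -0.011 under quantile normalization and to -0.015 with a trend on transcript length and GC content removed. Kcnab2, which helps carry Kv1 channels to the axon, had the highest level of all Kv genes, with 113.5, 129.6, 119.3 and 114.1 FPKM in scrambled and 115.6, 123.5, 126.2 and 122.6 in anti-miR-29a libraries. The groups overlapped (difference 0.035; limma, adjusted p = 0.840). Kcnab3 read 29.5, 34.7, 27.7 and 31.3 FPKM in scrambled and 39.4, 32.2, 33.5 and 36.7 in the anti-miR-29a libraries. Scrambled replicate 2 was the only scrambled library that overlapped the anti-miR-29a values. The difference was 0.20 (standard error 0.086; limma, adjusted p = 0.440), and 0.11 with that trend removed. Kcnab1, which speeds inactivation of Kv1 currents, read 14.2 ± 0.693 and 15.3 ± 1.43 FPKM, a difference of 0.10 (limma, adjusted p = 0.675).

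Kcnb2, a Kv2 delayed rectifier subunit, read 2.19 ± 0.328 and 1.81 ± 0.570 FPKM (difference -0.29; limma, adjusted p = 0.676). The difference of Kcnb2 was -0.13 without anti-miR-29a replicate 1 and -0.14 with the length and GC trend removed. Of the Kv4 genes Kcnd2 read 13.2, 17.7, 17.6 and 17.1 FPKM in scrambled and 13.2, 14.3, 15.4 and 15.4 in anti-miR-29a libraries. Scrambled replicate 1 lay below the other 3 scrambled values, at the level of anti-miR-29a replicate 1. The difference of Kcnd2 was -0.16 (limma, adjusted p = 0.612), and without scrambled replicate 1 it was -0.26 (limma, adjusted p = 0.299). Kcnd3 read 10.3 ± 1.45 and 8.79 ± 0.630 FPKM (difference -0.22; limma, adjusted p = 0.502) and Kcnd1 2.64 ± 0.396 and 2.65 ± 0.430 FPKM. Accessory subunits of Kv4 channels read in both directions: the transmembrane partner Dpp10 29.7 ± 3.14 and 26.0 ± 0.955 FPKM (difference -0.19; limma, adjusted p = 0.423), and the calcium sensor Kcnip2 34.3 ± 2.54 and 37.9 ± 1.17 FPKM (difference 0.15; limma, adjusted p = 0.447). Dpp6, the relative of Dpp10, stood at -0.085 and Kcnip3 at 0.054 log2 units, and neither passed.

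Among the Kcnh genes the ELK channel Kcnh3, a forebrain gene, stood highest, with 40.7, 46.6, 42.3 and 38.9 FPKM in scrambled and 47.2, 45.2, 42.2 and 42.7 in anti-miR-29a libraries. The groups overlapped (difference 0.075; limma, adjusted p = 0.719). Kcnh5, the second ether-a-go-go gene, read 3.94, 4.93, 4.19 and 4.98 FPKM in scrambled and 2.92, 4.71, 2.67 and 2.81 in the anti-miR-29a libraries. Anti-miR-29a replicate 2 stood at the scrambled level and the other 3 below all scrambled libraries. The difference was -0.48 log2 units (standard error 0.18; limma, adjusted p = 0.390), and -0.66 without that library. Kcnh1, the first ether-a-go-go gene, read 12.5 ± 0.986 and 12.6 ± 0.424 FPKM and the ERG gene Kcnh2 6.45 ± 0.359 and 6.18 ± 0.606. Kcnh7, a further ERG gene, read 5.29 ± 1.25 and 4.27 ± 0.919 FPKM (difference -0.30, and -0.16 without scrambled replicate 4; limma, adjusted p = 0.611 and 0.827), and up to 696 nt of its exons overlap those of Gca on the other strand. The ELK gene Kcnh4 read 5.21 ± 0.501 and 5.04 ± 1.51 FPKM.

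The modifier subunits held 10 genes, of which 8 were tested, 4 with a positive and 4 with a negative difference, of which the positive Kcnf1 and Kcns1 turned negative under quantile normalization, median centring and removal of the length trend. Kcnf1, the one with the highest level, read 24.5, 23.7, 24.3 and 25.4 FPKM in scrambled and 22.95, 26.2, 25.7 and 24.6 in anti-miR-29a libraries, with full overlap (difference 0.023; limma, adjusted p = 0.916). Kcng2 read 0.892, 0.972, 0.305 and 0.954 FPKM in scrambled and 1.34, 1.29, 1.31 and 1.18 in the anti-miR-29a libraries. Every anti-miR-29a library was higher, as for 2 of the 36 tested Kv genes, or 5.56%, against 4.02% of all tested rows. Scrambled replicate 3 was far below the other 3 scrambled values. The log2 difference was 0.75 (standard error 0.33; limma, adjusted p = 0.455), and it was 0.41 without that library (limma, adjusted p = 0.501). Kcng2 also overlaps the other-strand gene D330025C20Rik. Kcng1 read 2.65, 2.98, 2.55 and 2.33 FPKM in scrambled and 1.24, 1.86, 2.23 and 2.39 in anti-miR-29a libraries. Only scrambled replicate 4 overlapped the anti-miR-29a range. The difference of Kcng1 was -0.46 (standard error 0.20; limma, adjusted p = 0.457), and -0.27 without anti-miR-29a replicate 1 (limma, adjusted p = 0.571). Kcng4 read 1.51 ± 0.369 and 2.10 ± 0.523 FPKM (difference 0.44; limma, adjusted p = 0.518), so Kcng1 alone of the 3 tested Kcng genes read lower.

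Kcns1 read 6.74, 9.15, 8.66 and 7.62 FPKM in scrambled and 7.31, 9.47, 7.65 and 8.10 in anti-miR-29a libraries, with full overlap (difference 0.019; limma, adjusted p = 0.967). Kcns2 read 3.94 ± 0.417 and 3.37 ± 0.337 FPKM (difference -0.22; limma, adjusted p = 0.548) and Kcns3 1.86 ± 0.323 and 1.62 ± 0.206 FPKM. Kcnv1 read 10.7, 12.7, 10.5 and 11.4 FPKM and 9.13, 9.24, 11.4 and 11.95 FPKM. Anti-miR-29a replicates 1 and 2 were below all scrambled libraries and replicates 3 and 4 among them (difference -0.12; limma, adjusted p = 0.723).

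Differences followed transcript length in the table as a whole, and Kv transcripts are long. The median difference was 0.076 for tested rows with a longest transcript of up to 3000 nt, 0.010 for those above that and up to 6000 nt, and -0.060 above 6000 nt. The 6 tested Kv genes of the shortest class had a median of 0.11, the 20 of the middle class -0.074 and the 10 of the longest class -0.12. In the longest class 9 of 10 Kv genes were negative, Kcnh1 being the exception at 0.011, which turned to -0.015 under quantile normalization and to -0.018 under median centring. With the trend on length and GC content removed, the Kv median was -0.084 and that of all rows -0.0075. At the unadjusted bound 1 Kv gene was then higher, and 4 were lower, Kcna1, Kcna3, Kcng1 and Kcnh5, against 4.04% and 3.65% of all rows. Kcnc1 then stood at -0.10 log2 units and Kcnc2 at -0.12.

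**Figure D5:**
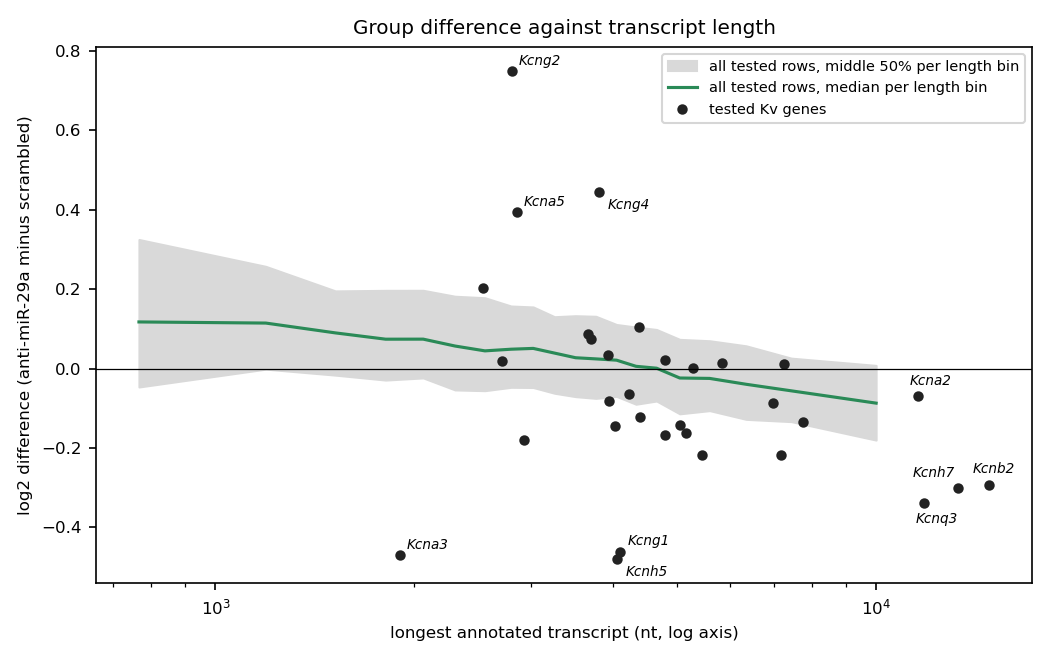
Log2 difference, anti-miR-29a minus scrambled, against the longest annotated transcript on a log axis. The line and band give the median and the middle part of all tested rows in bins of equal size, and points are 32 tested Kv genes. Bins of long transcripts lie below 0, and the Kv genes above 10000 nt that are drawn, Kcna2, Kcnb2, Kcnh7 and Kcnq3, all lie below 0 too.

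Coefficients of variation within groups had a median of 7.61% over the 23 Kv genes averaging 5 FPKM or more and of 19.1% over the 13 tested genes below it.

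Other potassium channel genes gave no adjusted call either. Of 8 tested accessory subunits of Kv channels 5 were positive, with a median of 0.034. Of 11 genes for clustering and transport of Kv channels 6 were positive, with a median of 0.0046. In that list Cntnap2, which holds Kv1 channels beside the nodes of myelinated axons, read 9.99 ± 0.892 and 8.42 ± 0.261 FPKM (difference -0.24; limma, adjusted p = 0.344). Sptbn4, a spectrin of the axon initial segment where Kv1 and Kv7 channels are anchored, read 39.7 ± 0.472 and 44.7 ± 2.54 FPKM (difference 0.17; limma, adjusted p = 0.30). Calcium- and sodium-activated channel genes had 4 of 9 positive, with a median of -0.078. The sodium-activated Kcnt2 read 5.29 ± 0.794 and 3.68 ± 0.416 FPKM (difference -0.51; limma, adjusted p = 0.246), and Kcnma1, the large-conductance calcium-activated channel, 18.1 ± 2.64 and 14.5 ± 1.01 FPKM (difference -0.31; limma, adjusted p = 0.333). Two-pore channel genes were positive in 2 of 9 with a median of -0.11, inward rectifier genes and their partners in 6 of 13 with a median of -0.056, and pacemaker (HCN) channel genes in 1 of 3 with a median of -0.054.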

How the data were processed

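RNA from 8 visual cortex samples was made into libraries with a TruSeq kit, per the labels' protocols, of a version that does not keep strand. Besides Kcnq1, Kcnh7 and Kcng2, the exons of Kcna6, Kcnab1, Kcnab3, Kcnd3, Kcnh3 and Kcnq5 overlap annotated exons on the other strand. That of Kcna6 with Gm26673 reaches 2355 nt. The largest overlap of exons was 1 nt for Kcnh3, 57 nt for Kcnab3, 83 nt for Kcnab1, 165 nt for Kcnd3 and 167 nt for Kcnq5. Kcnab2 overlaps Gm16334 on its own strand. The authors deposited FPKM values, 1 per gene row and library. CASAVA 1.8.2, Bowtie and Cuffnorm with the mouse build mm10 are named in the submitters' processing notes, and the annotation, filters and Cuffnorm scaling are unknown here. The scaling factor of each library is known only relatively, from ratios of values below a mean of 0.2 FPKM, with a tolerance of 0.02 log2 units.

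Rows with a mean of at least 0.5 FPKM were tested as log2(FPKM + 0.1) by limma 3.58.1 (R 4.3.3) in a model of group alone, using a variance trend, two-sided tests and Benjamini-Hochberg adjustment across all rows. Log2 differences of low genes are understated on this scale. All 43 Kv symbols matched GENCODE M21, as did 99.2% of tested rows. The fit was tested on simulated data. The symbol rule uses no measured value, but the choice of this gene family and of the related and marker lists was made with earlier results of these data known. Kv genes are named, with values per library for those at an unadjusted p under 0.05 or with groups that do not overlap, the highest of each subfamily and those at the filter bound, and from each related list at most 4 genes of smallest p. Some Kv genes are counted but not reported by name here, nor are the sums of their subfamilies. Kcnc1 and Kcnq3 were added after their values were seen. Alternatives were 2 pseudocounts (1 and 0.01), 2 filters, quantile normalization, median centring, robust empirical Bayes, array weights, a replicate block, removal of a trend in transcript length and GC content by splines, and each library left out.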

Additional observations from a re-analysis of the deposited data

Results flagged for a closer look

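A single library stood far from the other 3 of its group in 6 of the 64 groups of 4 values examined for 32 tested Kv genes, where chance flags about 5% of groups. In the scrambled group these were Kcnd2 in replicate 1, at 13.2 FPKM against 17.1 to 17.7 in the others, and Kcng2 in replicate 3, at 0.305 against 0.892 to 0.972. Anti-miR-29a replicate 1 stood apart for Kcnh4, at 7.30 against 4.06 to 4.44 FPKM. Anti-miR-29a replicate 2 stood apart for Kcnh5, at 4.71 against 2.67 to 2.92 FPKM, and for Kcna4, at 1.88 against 2.61 to 2.70. Kcna3 was high in anti-miR-29a replicate 3, at 2.61 against 2.02 to 2.12 FPKM.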

How the results depend on the processing

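No Kv gene passed after adjustment in any of the 18 alternatives. The median difference of Kv genes stayed negative in each, from -0.115 to -0.064 when 1 library was left out. At the unadjusted bound the counts moved. Higher genes numbered 1 with a filter at 5 FPKM, after quantile normalization, after median centring, with the replicate block and with the length and GC trend removed, and 1 to 4 without 1 library (4 without scrambled replicate 2). Lower genes numbered 2 with the filter at 5 FPKM, 11 after quantile normalization and 10 after median centring, and 1 to 6 without 1 library (6 without scrambled replicate 3). Over all rows 9.79% were higher and 3.65% lower with the filter at 5 FPKM, and 5.44% to 8.14% and 2.25% to 3.56% without 1 library. Groups that did not overlap were 0 higher with the filter at 5 FPKM and 1 lower, Kcng1, with the trend removed, where all rows gave 5.26% and 2.29%. They were 2 to 4 higher and 3 to 6 lower without 1 library, where smaller groups overlap less often by construction and all rows gave 5.48% to 7.57% and 3.24% to 4.30%. The cause of these moves was not tested, apart from the filter at 5 FPKM, under which 23 Kv genes remained. The direction of 28 of 36 genes was the same in each alternative. The other 8 had differences from -0.083 for Kcnh4 to 0.035 for Kcnab2. After quantile normalization Kcna6 stood at -0.012, Kcnab2 at -0.011, Kcnd1 at -0.034, Kcnf1 at -0.011, Kcnh1 at -0.015 and Kcns1 at -0.0042. Median centring gave Kcna6 -0.015, Kcnd1 -0.027, Kcnf1 -0.0066, Kcnh1 -0.018 and Kcns1 -0.010, and array weights gave Kcnd1 -0.0088. With the trend removed, Kcna2 stood at 0.032, Kcna6 at -0.00062, Kcnab2 at -0.015, Kcnd1 at -0.025, Kcnf1 at -0.019 and Kcns1 at -0.040. Without 1 library the lowest and highest values were -0.035 and 0.067 for Kcna6, -0.070 and 0.11 for Kcnd1, -0.0033 and 0.060 for Kcnf1, -0.034 and 0.047 for Kcnh1, -0.27 and 0.0055 for Kcnh4, and -0.061 and 0.083 for Kcns1. Same-numbered libraries of the groups did not deviate together (correlations of -0.0856, 0.0143, -0.106 and -0.0972 over 13912 rows). Pairs of unlike number gave correlations from -0.235 to 0.194. The labels do not state whether the numbers pair the samples, and these correlations cannot decide it. With the replicate block 1 Kv gene was higher and 4 were lower at the unadjusted bound, against 7.5% and 3.11% of all rows, and 3 of the 7 genes without the block were among them.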
